A study of Mus musculus with 11 samples.

Results

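The libraries described here are the 3 wild-type libraries (Dzip1+/+) of the Dzip1 experiment, 3 of the 11 libraries of the series, and all 26667 genes of their count table were read. They were chosen by genotype label alone, so no measured value chose them, and no genotype difference is reported; the Dzip1S14R/+ counts entered only a check of how the libraries were grouped. The series asks how RNA of mouse mitral leaflets changes with loss of Ift88 or with a Dzip1 allele, and its Dzip1 table also holds 3 libraries labelled Dzip1S14R/+. Total RNA was taken on columns and cleared of DNA with DNase, and SMART-Seq v4, a kit for very small amounts of RNA, turned it into sequencing libraries. The labels give heart mitral leaflets as the source and no Cre, transgene or drug for these mice. The labels do not give the age or sex of the mice or say whether a library stands for 1 animal or a pool, so the spread between libraries may in part be technical.

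Mitral leaflets are thin flaps that close the passage from the left atrium into the left ventricle. Endothelium continuous with the endocardium covers each flap, and interstitial cells inside it build a layered matrix of fibrillar collagen, proteoglycan and elastic fibre. At the hinge the leaflet joins the muscle of the atrial and ventricular wall, and on the free side it continues into tendinous cords.

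Depth was high and even, with 75.1 to 79.1 M (1e6) counts per library and 232.861 M over the 3. Levels are CPM, the counts of a gene per M counts of all genes in its library, and all averages are over the 3 libraries. CPM sorts genes into classes and ranks them by their counts, which grow with transcript length. Ratios between genes are given only per length, as TPM, the same counts divided by transcript length and scaled to equal totals. The libraries ranked the genes above the lowest levels nearly alike. Across the 13491 genes with a mean of at least 1 CPM, Spearman correlations between pairs of libraries were 0.997, 0.996 and 0.996. Genes are not independent of each other, and genes under 1 CPM were left out of these values. In these bulk samples fewer cells of a type and less RNA per cell cannot be told apart.

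The grouping of the libraries carried an ambiguity. The authors' deposited table also gives log2 fold changes between 2 groups of the 6 Dzip1 libraries, without naming the groups. Across 12282 genes with a mean count of at least 200, those fold changes had a Spearman correlation of 0.632 with fold changes computed by the genotype labels. Of 10 ways to divide the 6 libraries 3 against 3, the highest correlation, 0.983, came from setting wild-type replicates 1 and 3 with S14R/+ replicate 2 against wild-type replicate 2 with S14R/+ replicates 1 and 3. By Pearson correlation that division gave 0.457, below the labels with 0.551, and the highest, 0.598, came from setting wild-type replicates 1 and 3 with S14R/+ replicate 1 against the other 3 libraries. The next highest Spearman correlation was 0.635, far below 0.983, while no division came near that value by Pearson correlation. The 2 coefficients were thus highest for different divisions, both with wild-type replicate 2 apart from replicates 1 and 3. Which libraries the authors compared was not settled by these values. The labels were followed here, and sums of the main lists and levels of the 5 check genes are also given over replicates 1 and 3 alone.

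Gene levels fell into 5 classes. Abundant genes, at 100 CPM or more, numbered 2363, or 8.86% of all genes, and held 67.3 ± 0.400% of the counts (SD, n = 3 here and below). Middling genes, from 10 to under 100 CPM, were the largest class, with 7680 genes or 28.8%, and held 31.1 ± 0.316% of the counts. A further 3448 genes (12.9%) were low, from 1 to under 10 CPM. Trace genes, under 1 CPM with a count in at least 1 library, numbered 6880 (25.8%) and held 0.125 ± 0.0133% of the counts. In the remaining 6296 genes (23.6%) no count was found in any library. A count of 0 over the 3 libraries allows a level of up to 0.0129 CPM, counting error only, so absent means below that limit. Protein-coding genes made up 2342 of the abundant and 3652 of the absent genes. Class counts of the lists and families below are to be read beside these shares of all genes. The median over all genes was 1.12 CPM and over the 20371 genes with a count 9.34 CPM, and 1064 genes held 50% of the counts. The histogram of levels shows a hump inside the middling range and a long tail of low and trace genes. At its left edge, genes with very few counts take only a few separate levels and pile up in separate bins.

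**Figure D1:**
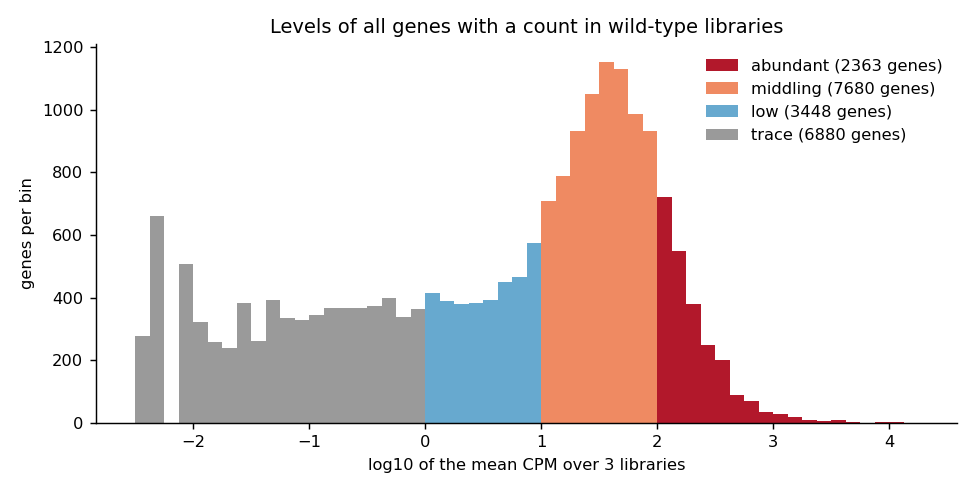
Histogram of all 20371 genes with a count, by log10 of mean CPM over the 3 libraries (horizontal axis) and number of genes per bin (vertical axis), coloured by class. The hump lies within the middling class of 7680 genes, and the 2363 abundant genes form its right flank; the 6296 genes with no count are not drawn.

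Families of genes sat at both ends of this scale, on which 8.86% of all genes were abundant and 23.6% absent. The 81 genes of cytosolic ribosomal proteins, which build the ribosome's 2 subunits, included 75 abundant ones, Rplp0 at 1215 CPM among them. Their summed level was 28594 ± 1150 CPM. Among 1098 odorant receptor genes, 1044 were absent and only Olfr1033, at 1.04 CPM, reached 1 CPM. Vomeronasal receptors, which detect pheromones, were absent in 310 of 323 genes, bitter taste receptors in 32 of 35, keratin-associated proteins of hair in 51 of 54 and beta-defensins in 37 of 44. Of 661 microRNA genes 445 were absent and 1 was abundant, Mir5105 at 479 CPM. Whether these libraries take up RNA as short as a microRNA was not tested, so these zeros are not read as lack of expression. Solute carriers, the transporters of small molecules, spread over every class, with 27 abundant, 135 middling, 66 low, 106 trace and 25 absent genes.

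Counts were not held by a few genes. The 10 highest genes took 6.59 ± 0.204% of the counts and the 100 highest 19.3 ± 0.320%, and 73 genes reached 1000 CPM. At the head of the list by CPM stood a mix of imprinted growth genes and heart muscle genes. H19, an imprinted non-coding RNA of growing tissues (chr7:142575529-142578143, build GRCm38), had 12312, 12782 and 13199 CPM in replicates 1, 2 and 3. Igf2, the growth factor transcribed from the other parental allele of the same locus, had 8416, 8460 and 8651 CPM, and its gene lies 72.6 kb from H19. Both genes varied little between libraries, and none of the 3 stood apart. Per length, H19 exceeded Igf2 by 3.10 ± 0.0679 times. Igf2r, the receptor that clears IGF2, was at 3560 ± 222 CPM, Mest, an imprinted gene of mesoderm, at 2966 ± 187, Grb10, an adaptor that restrains growth signalling, at 2251 ± 24.0 and Nedd4, a ubiquitin ligase, at 2722 ± 48.6.

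Heart muscle genes stood beside them at the head of the list. Myh7, the slow myosin heavy chain of the ventricle, had 12827, 12203 and 10561 CPM. Actc1, cardiac actin, had 9652, 10145 and 8551 CPM. In both genes replicate 3 was the lowest. Tnnt2, the thin-filament troponin T, was at 4269 ± 311 CPM, Myh6, the fast cardiac myosin, at 4021 ± 354, Myl2, the ventricular regulatory light chain, at 3838 ± 279, and Tpm1 (tropomyosin) at 3020 ± 168. Mybpc3, the myosin-binding protein of the thick filament, was at 2966 ± 146 CPM. Ranked with them were genes of every cell: Eef1a1 at 4182 ± 24.5 CPM and Eef2 at 2585 ± 9.30 (translation elongation), Hsp90ab1 at 3418 ± 105 (a chaperone), Gapdh at 3227 ± 100 and Pkm2 at 2220 ± 21.2 (glycolysis), and Atp5b at 3480 ± 257 and Atp5a1 at 2411 ± 156 (ATP synthase). Fn1, the adhesive matrix protein fibronectin, was at 3227 ± 108 CPM, and Col3a1, a fibrillar collagen, at 2208 ± 310.

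Ranking per transcript length moved short transcripts up. Actc1 led with 18524 ± 1639 TPM, before H19 with 16121 ± 554 and Myl2 with 12465 ± 935. Hbb-y, a globin of embryonic red cells, came next with 10780 ± 4534 TPM, the widest spread among the leading genes. Eef1a1 had 6730 ± 31.3 TPM, the atrial natriuretic peptide gene Nppa 6067 ± 403, Myh7 5499 ± 548 and the myosin light chains Myl3 and Myl7 5058 ± 404 and 4260 ± 171. Tnnc1, the calcium sensor troponin C, was at 3944 ± 342 TPM. Neighbours in this order, such as Myh7, Atp5b (5244 ± 399 TPM) and Igf2 (5203 ± 70.3 TPM), did not differ beyond their spread.

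The starts of the leading protein-coding genes are shown to set the most abundant transcripts beside their core promoters, from 100 bases before to 20 after a RefSeq start (build GRCm38.p6), 5′ to 3′ on the gene's strand. Capitals mark the TATA box words TATAAA and, shifted by a base, ATAAAA, joined where they overlap. They also mark a CArG box, the site bound by serum response factor in muscle genes. The marked letters begin 47 bases before the listed start in Actc1, 28 in Hbb-y and 9 in Nppa. Whether a marked word acts as a promoter element was not tested. Actc1 lies at chr2:114052856-114052975 on the minus strand, Hbb-y at chr7:103853188-103853307 on the minus strand, Nppa at chr4:148000622-148000741 on the plus strand and Eef1a1 at chr9:78481705-78481824 on the minus strand.
Actc1: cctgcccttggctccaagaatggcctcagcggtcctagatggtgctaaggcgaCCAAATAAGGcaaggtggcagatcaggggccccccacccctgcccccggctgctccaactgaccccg
Hbb-y: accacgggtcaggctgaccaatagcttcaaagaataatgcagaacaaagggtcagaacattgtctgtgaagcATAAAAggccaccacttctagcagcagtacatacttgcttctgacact
Nppa: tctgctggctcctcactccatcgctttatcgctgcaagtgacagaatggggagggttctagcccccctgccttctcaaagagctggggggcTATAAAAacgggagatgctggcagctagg
Eef1a1: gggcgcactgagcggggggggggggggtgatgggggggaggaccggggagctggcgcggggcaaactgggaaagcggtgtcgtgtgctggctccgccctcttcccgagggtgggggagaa
These are 4 of the 5 protein-coding genes with the highest TPM. The fifth, Myl2, had neither word and no CArG box in the same window of its 2 RefSeq starts. Both Myl2 windows, chr5:122092624-122092743 and chr5:122093089-122093208, lie before the gene position used for its level, chr5:122100951-122113472. They therefore say nothing of a start at that position. The listed stretches covered 27025 genes, 17943 of them in the count table. At least 1 of these TATA box words, which overlap each other and both occurred in 589 stretches, was found on the gene's strand in 7.19% of all 32851 stretches and on the other strand in 4.90%. By class the gene-strand share was 3.45% in abundant, 2.42% in middling, 3.78% in low, 8.97% in trace and 18.2% in absent genes. On the other strand the share was 1.75% in abundant and 10.5% in absent genes. Stretches with these words were thus more frequent among genes without counts than among abundant ones on either strand, as a description of the listed letters. A CArG box on either strand occurred in 0.676% of all stretches, in 0.974% of those of abundant and 0.789% of those of absent genes. It was in 3 of 32 stretches of the cardiomyocyte list (Actc1, Ldb3 and Myom1) and in 0 of 13 of the smooth muscle and pericyte list. No match says only that these letters are not in this window.

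The 5 genes given as checks of the tissue were all present. Actc1, for muscle, was at 9449 ± 816 CPM. Col3a1, a fibrillar collagen of soft tissue, had 1908, 2189 and 2526 CPM, and Col1a1, the main chain of type I collagen, had 1254, 1532 and 2119 CPM. Replicate 3 was the highest and replicate 1 the lowest in both collagens. Cdh5, the cadherin of endothelial junctions, was at 296 CPM, with 280, 304 and 304 in the libraries, and Csf1r, the growth factor receptor of macrophages, at 37.3, with 33.9, 36.6 and 41.2. Per length, Actc1 exceeded Col1a1 by 24.6 ± 7.57 times, with 31.0, 26.7 and 16.2 times in replicates 1, 2 and 3. The libraries labelled as leaflet therefore held muscle, matrix, endothelial and macrophage transcripts, and their leading cell type genes were those of heart muscle, not of the interstitial or endothelial cells that define a leaflet. The labels do not say how much adjoining wall was taken with the leaflets, and its part in these levels was not tested. Over replicates 1 and 3 alone, Actc1 was at 9101 CPM, Col3a1 at 2217, Col1a1 at 1687, Cdh5 at 292 and Csf1r at 37.6. Over the same libraries the summed cardiomyocyte list below was 32739 CPM, the fibroblast list 7625, the general endothelial list 2583 and the macrophage list 198, against 33273, 7566, 2588 and 195 with replicate 2.

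Cardiomyocyte genes were the highest of the 25 cell type lists, by summed level and by median member, in CPM and in TPM. Of 30 listed genes, 23 were abundant, beside 8.86% of all genes, 4 middling, 3 low and none absent, and the median was 411 CPM. Their sum was 33273 ± 1551 CPM, 3.33% of the counts. Below the leading genes came Atp2a2, the calcium pump of the sarcoplasmic reticulum, at 1968 CPM, and Actn2, which anchors thin filaments at the Z-disc, at 1756. Genes of energy use in muscle lay in 3 classes. Mb, myoglobin, and Cox6a2, a muscle subunit of the respiratory chain, were abundant at 147 and 120 CPM, Ckm, muscle creatine kinase, and Cox7a1 were middling at 36.4 and 24.6, and Ckmt2, the mitochondrial creatine kinase, was low at 6.36. The structural genes Myom2 and Xirp2 were low, at 6.41 and 1.44 CPM.

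Chamber genes of both kinds were present. All 7 ventricular genes reached 10 CPM: Myh7, Myl2 and Myl3 (1970 ± 153) carried nearly all of the summed 17920 ± 1532 CPM, and the transcription factors Hey2, Irx4, Irx3 and Irx5 were at 115, 89.9, 26.1 and 17.1 CPM. Of 14 atrial genes 6 were abundant, 7 middling and 1 low, with a sum of 6941 ± 206 CPM. Myl4, an atrial light chain, was at 2015 CPM, Nppa at 1818, Pam, which amidates peptides in atrial granules, at 1557, Myl7 at 871, the connexin gene Gja5 at 206 and Dkk3 at 154. Middling atrial genes were Kcnj5 at 97.8 CPM, Tbx5 at 81.3, Bmp10 at 69.9, Nr2f2 at 31.8, Kcna5 at 16.4, Kcnj3 at 10.5 and Nr2f1 at 10.4. Sln, the atrial regulator of the calcium pump, was low, at 2.40, 2.06 and 6.12 CPM, with replicate 3 the highest.

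Paired isoforms gave a balance within each library. Myh7 exceeded Myh6 per length by 2.93, 3.31 and 2.50 times, and the ventricular Myl2 exceeded the atrial Myl7 by 3.00, 3.22 and 2.58 times. The ventricular form was therefore the higher of both pairs in every library, least so in replicate 3. Myl3 exceeded Myl4 by 2.84 ± 0.169 times. By CPM these 2 genes were near alike, at 1970 ± 153 and 2015 ± 49.8. Their ratio thus rests on the transcript lengths used, 1125 bases for Myl3 and 3273 for Myl4. Tnni1, the slow skeletal troponin I also made in the developing heart, exceeded the cardiac Tnni3 by 1.37 ± 0.0550 times. Actc1 exceeded the skeletal actin gene Acta1 by 40.2, 40.1 and 23.6 times, again least in replicate 3. Nppa exceeded Nppb, its ventricular relative, by 11.7, 20.3 and 13.2 times. Myh6 and Myh7 lie 3.76 kb apart on chromosome 14 and share much sequence, as do the actin genes, and nothing used here says how shared reads were counted, so these ratios are uncertain to that extent.

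**Figure D2:**
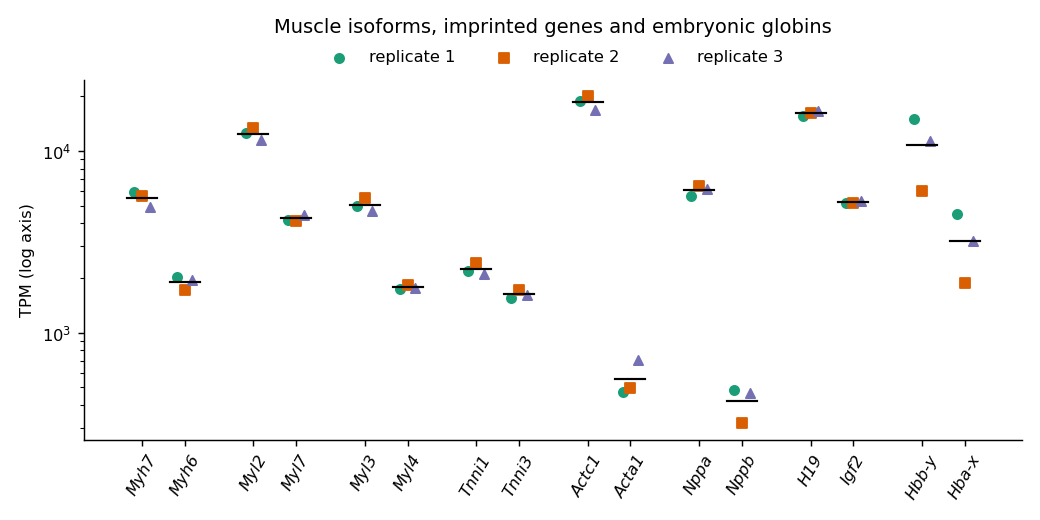
TPM (log vertical axis) of 16 genes set in 8 pairs, with a symbol for each of the 3 libraries and a line at their mean. Myh7, Myl2, Myl3, Tnni1, Actc1, Nppa and H19 lie above their partner in every library, and the embryonic globins Hbb-y and Hba-x are the genes in which replicate 2 lies farthest below the others. Myl3 and Myl4 were near alike by CPM, and their distance here rests on the transcript lengths used.

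Other muscle lists were smaller. Smooth muscle and pericyte genes had 9 of 18 members abundant, beside 8.86% of all genes, and a sum of 3358 ± 99.0 CPM. Among them were Acta2 at 1202, Mcam at 597, Tagln at 407, Cnn1 at 324, Smtn at 153 and Abcc9 at 151. Acta2, Tagln and Cnn1 are also made by young heart muscle. Myh11, the myosin that defines mature smooth muscle, had 1.70, 5.61 and 23.9 CPM, and the pericyte gene Higd1b was absent. Skeletal muscle genes were trace in 9 of 16, beside 25.8% trace and 23.6% absent among all genes, with Acta1 at 280 CPM as the single abundant member. Conduction system genes were middling in 7 of 15, with the calcium channel subunit Cacna2d2 at 195 CPM, Tbx18 at 86.6, the connexin gene Gjc1 at 82.9, Cacna1g at 40.2, Cacna1d at 38.9 and the pacemaker channel Hcn4 at 37.8. Shox2, a regulator of the sinus node, had 3.38, 3.21 and 10.7 CPM, and Vsnl1 5.26, 6.99 and 15, highest in replicate 3 in both.

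Fibroblast and interstitial cell genes came next by summed TPM (4878 ± 626) after the cardiomyocyte, ventricular and atrial lists. With merged exon length their sum was 4288 TPM, below the 4538 of the smooth muscle and pericyte list, so this place depends on the length chosen. Of 20, 7 were abundant, 7 middling, 5 low and 1 trace, with a sum of 7566 ± 1081 CPM and a median of 64.2. Collagens carried most of it, with Vim, a filament protein of mesenchymal cells, at 1085 CPM, Postn, a matrix protein of valve cushions, at 650 and Fbln1 at 214. Pdgfra, a receptor of mesenchymal cells, was at 211 CPM. Members at the low end included Pi16 at 8.17 CPM, Dpt at 5.94 and Clec3b at 0.0304. They were named after their values were seen and do not stand for fibroblast genes as a group, and Lum and Dcn of the same list are given below. The transcription factors of the list, Meox1, Tcf21 and Prrx1, were middling at 56.8, 36.0 and 30.5 CPM.

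Endothelial genes had the smallest spread of summed CPM, relative to its mean, among the cell type lists. Of 21, 9 were abundant, 10 middling and 2 low, none fell under 1 CPM, and the sum was 2557, 2597 and 2609 CPM in the 3 libraries. Eng was at 365 CPM, Cdh5 at 296, Tie1 at 283, Pecam1 at 209, Kdr, the main VEGF receptor, at 201 and Tek at 198. Sox17, a factor of arterial endothelium, was low at 5.14 CPM. The endocardial and valve endothelial list had 6 abundant and 7 middling genes of 14 and a sum of 1381 ± 29.6 CPM. Its members included Cgnl1 at 332 CPM, Npr3, an endocardial receptor that clears natriuretic peptides, at 205, Plvap at 162, Hapln1 at 145, Notch1 at 136 and Gpr126 at 122. Nfatc1, a transcription factor of valve endothelium, was at 102, 92.4 and 104 CPM. Capillary genes were middling in 3 of 10, near the 28.8% of all genes, and none was abundant. The middling ones were the water channel gene Aqp1 at 83.0 CPM, the fatty acid carrier gene Cd36 at 76.7 and Kcna5, also on the atrial list, at 16.4. Gpihbp1, which docks lipase on capillaries, was at 0.941 CPM. Lymphatic genes included Prox1 at 71.1 CPM, also made by heart muscle, and Flt4 at 58.3, while Lyve1 was at 9.30 and the chemokine Ccl21a at 0.422.

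Macrophage genes were low but measurable in every library. Of 24, 6 were middling, 12 low and 6 trace, and the sum was 175, 189 and 221 CPM. Csf1r was at 37.3 CPM, the lysozyme Lyz2 at 33.7, the mannose receptor Mrc1 at 26.5, Laptm5 at 19.1, Cx3cr1 at 16 and the complement gene C1qc at 11.1. Per length, Cdh5 exceeded Csf1r by 9.38 ± 0.608 times. The antigen-presenting gene H2-Aa, at 0.0867 CPM, Ccr2 of recruited monocytes, at 0.112, and Cd163, at 0.0340, were near the limit of counting.

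Other leukocytes were scarcely represented. T, B and NK cell genes summed to 3.27 ± 0.913 CPM, of which the kinase Lck made up 78.3%. Cd3d, Cd3e and Ncr1 were absent. Neutrophil genes summed to 1.96 ± 0.818 CPM, with Mpo at 0.925, Csf3r at 0.715 and both Ly6g and Elane absent. Dendritic cell genes were under 1 CPM in 6 of 7, Zbtb46 at 12.4 CPM being the exception, and Cd209a was absent. Mast cell genes included Kit at 32.8 CPM, also a gene of other cells, while the mast cell proteases Cpa3 and Mcpt4 were at 0.411 and 0.278 and Tpsb2 and Fcer1a were absent.

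Red cell genes were present and uneven. The list of mature-type genes had 9 of its 12 names in the table and summed to 811, 415 and 643 CPM, lowest in replicate 2. Without that library the mean was 727 CPM, against 623 with it. Of the embryonic globins, Hbb-y, a beta-type chain, had 3298, 1313 and 2483 CPM, and Hba-x, the embryonic alpha chain, had 1254, 518 and 888. Hbb-bh1, the other embryonic beta chain, had 129, 34.7 and 80.9 CPM. The order of the libraries was the same in all 3 genes. Per length, Hba-x exceeded Hba-a2 by 3.26 ± 0.497 times, and Hbb-y exceeded Hbb-bh1 by 30.4 ± 5.96 times. Hba-a1 and Hba-a2, at 91.8 and 183 CPM, are near-identical copies, and Hbb-b1 (131 CPM) and Beta-s (10.3 CPM) are too, so the share of each within its pair is uncertain. Slc4a1, the anion exchanger of the red cell membrane, was at 119 CPM and Alas2, of haem synthesis, at 50.9. Platelet genes were low in 7 of 8 and middling in Itga2b, at 29.4, 13.1 and 22.4 CPM, with replicate 2 again the lowest.

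Epicardial and mesothelial genes were middling in 11 of 13, with Upk3b at 118 CPM, Krt19 at 54.0, Aldh1a2, which makes retinoic acid, at 43.1, Lrrn4 at 36.3 and Wt1 at 33.3, and a sum of 473 ± 62.0 CPM. Schwann and glial genes included Erbb3 at 26 CPM, Cnp at 21.3, Prx at 15.1 and Mbp at 12.7, with Sox10, the factor of the lineage, at 1.32 and Pmp2 absent. Melanocyte genes summed to 57.1 ± 3.96 CPM, of which Mitf, also active in other cells, made up 89.6%. The pigment genes Dct and Pmel were at 2.55 and 2.77 CPM and Oca2 was absent. Neuronal genes included Tubb3 at 16.8 CPM and the vesicle transporter Slc18a2 at 12.2, with Th at 0.378 and Chat absent. Of fat cell genes only Lpl, at 125 CPM, and Pnpla2, at 45.8, reached 10 CPM, both also used by muscle. Adipoq was at 0.0222 CPM and Cfd was absent.

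Genes of distant organs served as a measure of background. Of 28 such genes none reached 10 CPM, 4 were low, 17 trace and 7 absent, and their median was 0.0991 CPM. The median was 3.63 CPM in the macrophage list, above this level, and 0.0174 in the lymphocyte and 0.0131 in the neutrophil list, below it. Slc17a7, a transporter of brain synapses, was at 6.48 CPM, and albumin (Alb) was at 0.0126. The absent ones were Umod and Slc12a1 of kidney, Cyp3a11 of liver, Prss2 of pancreas, Olig2 and Neurod1 of the nervous system and Cryaa of the lens.

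**Figure D3:**
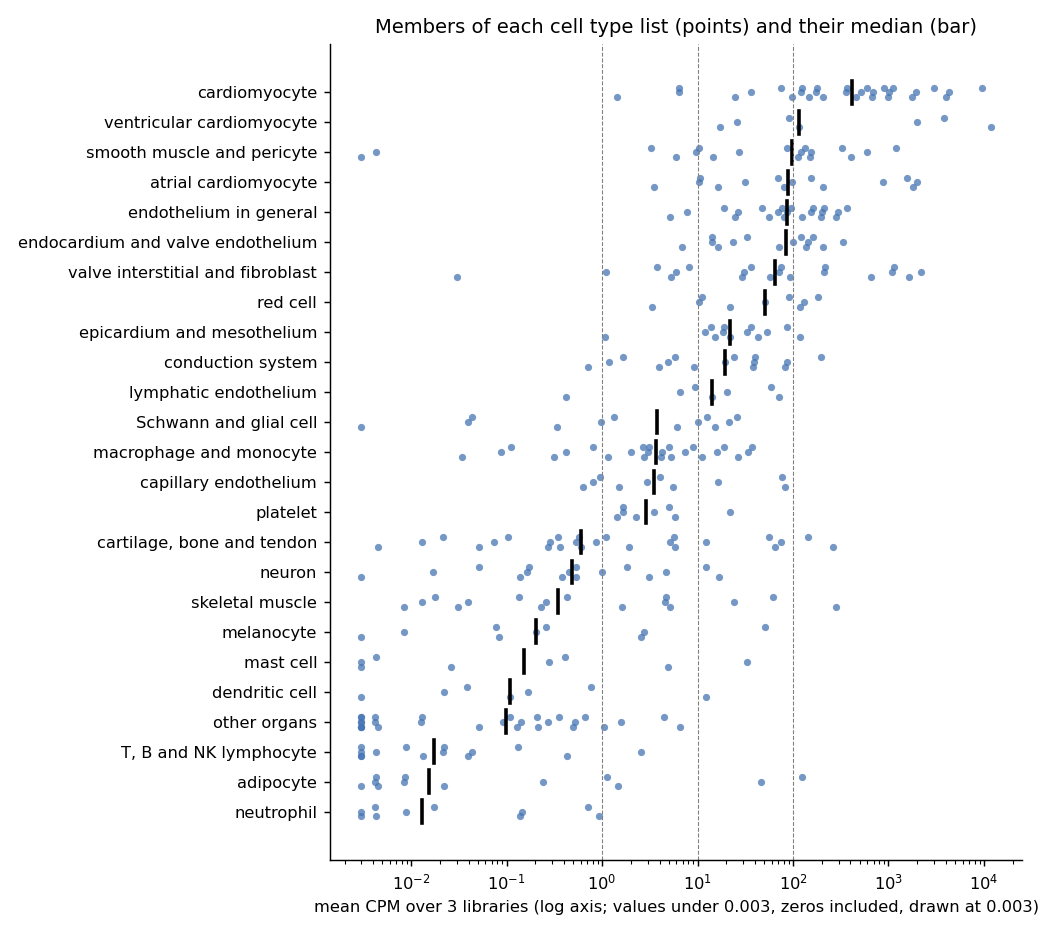
Each point is a gene of 1 of 25 cell type lists (vertical axis), placed by mean CPM over the 3 libraries (log horizontal axis), with a bar at the list's median; dashed lines at 1, 10 and 100 CPM divide the classes, and CPM is not corrected for length. Cardiomyocyte genes have the highest median, 411 CPM, the medians of the general endothelial and fibroblast lists lie between 10 and 100, and lymphocyte, neutrophil and distant-organ genes lie mostly under 1 CPM.

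Matrix genes were described by role. Fibrillar collagens, the cables of the leaflet, had 6 abundant, 2 middling, 2 low and 1 trace member of 11 and a sum of 5564, 6439 and 7803 CPM. Per length they ranked Col3a1 at 1145 TPM, Col1a1 at 796, Col1a2 at 618, Col5a2 at 287, Col5a1 at 204 and Col2a1 at 147. Col1a1 exceeded Col1a2 by 1.28 ± 0.0293 times, near alike in all 3 libraries although both genes differed between them. Col2a1, the fibrillar collagen of cartilage, was abundant at 271, 263 and 246 CPM, and here replicate 3 was the lowest.

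Basement membrane and linking collagens had 9 abundant and 11 middling genes of 29. Col4a1 and Col4a2, the common network chains, were at 695 and 453 TPM, a ratio of 1.53 ± 0.0335, and Col18a1 was at 515 TPM. Col4a5 was at 166 TPM, Col6a2 at 102 and Col6a1 at 91.7. Col6a4, Col6a5, Col19a1 and Col28a1 were trace. Laminin and nidogen genes of the same membrane were high: Lamc1 at 1008 CPM, Lamb1 at 747, Lama4 at 564 and Nid2 at 546.

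Elastic fibre genes had 15 of 23 members abundant, beside the 8.86% of all genes. Eln, elastin itself, had 854, 1184 and 1043 CPM. Of the microfibril proteins that scaffold it, Fbn2, the form of the embryo, was at 726 CPM and Fbn1 at 511, and Fbn2 exceeded Fbn1 per length by 1.68, 1.52 and 1.43 times. Mfap2 at 483 TPM was the highest of the list per length after Eln at 770. The lysyl oxidase genes that cross-link collagen and elastin ranged from Loxl2 at 367 CPM to Loxl4 at 0.757.

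Proteoglycan genes were more divided, with 5 abundant, 7 middling, 7 low and 11 trace members of 30. Vcan, the large hyaluronan-binding proteoglycan of valve cushions, had 1349, 1257 and 1100 CPM, and Hspg2, perlecan of basement membranes, had 1275, 1269 and 1100. Bgn, a small leucine-rich proteoglycan, was at 258 TPM, Lum at 111, Dcn at 46.3 and Aspn at 5.60. Acan, of cartilage, was at 5.86 CPM, although its link protein gene Hapln1 was at 145. Has2, the hyaluronan synthase of the cushions, was middling at 24.9 CPM, while Has3 was low and Has1 trace.

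Among glycoproteins that bind cells to matrix, 15 of 37 genes were abundant and 10 middling. Per length Sparc, which aids collagen assembly, was at 1153 TPM and Fn1 at 1120, a difference within their spread, with Postn at 359 TPM. The matrix-degrading list had 8 abundant and 14 middling genes of 34, among them the membrane protease Mmp15 at 420 CPM, the cathepsin Ctsb at 413, the gelatinase Mmp2 at 289, Ctsl at 288 and Mmp14 at 266. Timp3, an inhibitor that stays in the matrix, was at 231 CPM. Mmp9, Mmp13, Mmp12 and Mmp8 were trace, at 0.661, 0.0304, 0.0218 and 0.00422 CPM, and Mmp3 was absent. Of cartilage, bone and tendon genes, Col2a1, Hapln1, Col9a1 (74.9 CPM) and Sox9 (64.7) were present, while 14 of 25 were trace, beside 25.8% of all genes, among them Runx2, Sp7 and Bglap of bone and Tnmd of tendon.

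**Figure D4:**
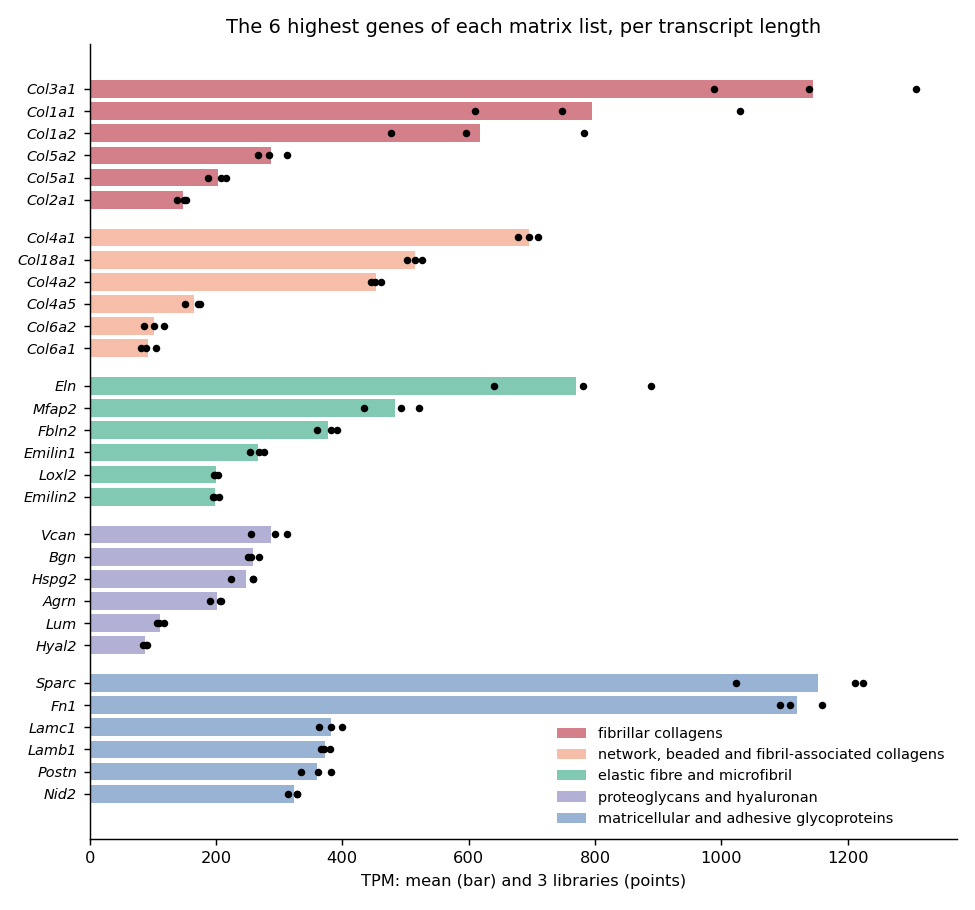
The 6 genes with the highest mean TPM of each of 5 matrix lists; bars give the mean over the 3 libraries and points the libraries (horizontal axis from 0). Sparc, Col3a1 and Fn1 lie above 1100 TPM, and the SD between libraries was 214 TPM for Col1a1, 160 for Col3a1 and 154 for Col1a2.

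Transcription factors of valve and cushion development were present nearly throughout: 11 of 43 were abundant, 26 middling, 5 low and 1 trace. Among all genes 8.86% were abundant and 28.8% middling. Tbx20 was at 641 CPM, Gata4 at 372, Sox4 at 177, Gata6 at 173, Mef2a at 134 and Hand2 at 128. Several of these are also factors of heart muscle. Scx, of tendinous tissue, was low at 5.63 CPM and Meox2 trace at 0.807.

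Of 18 genes linked to mitral prolapse or valve disease, 9 were abundant, 8 middling and 1 trace. In the same order the shares of all genes were 8.86, 28.8 and 25.8%. Flna, the actin cross-linker filamin A, was at 1223 CPM, Tns1 at 518, Fbn1 at 511 and the cadherin Dchs1 at 173. Dzip1, the gene mutated elsewhere in the series, had 30.4, 27.6 and 32.3 CPM. Cby1, which encodes a protein of the ciliary base, had 18.3, 21.4 and 20.0 CPM, and Ift88, of transport within cilia, had 11.9, 13.1 and 12.1. Each of the 3 genes was middling in every library. Glis1, a zinc finger factor, was at 0.256 CPM.

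Genes of the primary cilium sat mostly in a single class. Of 46, 38 were middling, against 28.8% of all genes, with 2 abundant, 6 low and none under 1 CPM. Odf2 and Pkd1 were at 118 and 106 CPM, Pkd2 at 91.1, Kifap3 at 70.6, Cep164 at 62.4 and Ift172 at 61.3, and Kif17 was at 1.13. Of 14 genes of motile cilia, which beat, 12 were listed in the table, and none reached 10 CPM. Foxj1, their master regulator, was at 0.516 CPM and the dynein gene Dnahc5 at 0.0818.

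Signalling lists gave further detail. Of natriuretic peptide genes, the receptors Npr2 and Npr1 were middling at 42.6 and 34.4 CPM, the processing enzymes Furin and Corin were at 267 and 86.1, and Nppc, the ligand of Npr2, was trace at 0.428. Serotonin genes included the breakdown enzymes Maoa at 24.6 CPM and Maob at 8.83. The transporter Slc6a4 was at 2.23 and the receptors Htr2a and Htr1b at 2.22 and 1.01. Htr2b, a receptor named in drug-induced valve disease, was at 0.114, 0.0759 and 0.0932 CPM, and Htr1a, Htr5a and Htr6 were absent.

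Growth genes were high in all 3 libraries. Of 20 genes of fetal and growing tissue, 16 were abundant, beside 8.86% of all genes. The 20 genes summed to 32610 ± 1201 CPM, or 33297 over replicates 1 and 3 alone. Cdkn1c, a cell cycle inhibitor, had 799, 798 and 793 CPM, and Plagl1 was at 861. The RNA-binding proteins Igf2bp1, Igf2bp2 and Igf2bp3 were at 166, 185 and 143 CPM and Hmga2 at 134. Lin28a was trace at 0.912 CPM, and Afp, of fetal liver and yolk sac, was trace at 0.272. Cell cycle genes were abundant in 19 of 25 and middling in the other 6, beside 8.86% abundant and 28.8% middling among all genes. Top2a had 549, 551 and 545 CPM and Mki67 505, 463 and 471, with the replication helicase genes Mcm6 at 233 and Mcm7 at 207, Rrm2, of nucleotide synthesis, at 211 and Mcm3 at 204.

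Energy genes were mostly abundant. Of 31 genes of glycolysis and fatty acid use 23 were in that class, beside 8.86% of all genes. Aldoa was at 3313 TPM, Gapdh at 2833, Ldha at 2718 and Pkm2 at 2635. By CPM Gapdh, at 3227, was above Aldoa, at 1778, so their order per length rests on the lengths used, 3289 and 1549 bases. The basal glucose transporter Slc2a1 exceeded the insulin-responsive Slc2a4 by 11.8 ± 1.07 times per length, and Eno1 exceeded the muscle form Eno3 by 4.65 ± 0.328 times. Cpt1a, the liver form of the gate of fatty acids into mitochondria, exceeded the muscle form Cpt1b by 32.5, 58.8 and 43.4 times, Cpt1b being at 1.45 CPM. None of the 15 mitochondrially encoded genes was listed in the table. Immediate early and stress genes had 3 abundant members of 25, near the 8.86% of all genes: Hspb1 at 248 CPM, Jund at 190 and Jun at 121. Fos was at 10.0, 5.73 and 7.93 CPM and Egr1 at 58.4 in replicate 1 and 28.8 in replicate 2, both highest in replicate 1 and lowest in replicate 2.

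Spread between the 3 libraries was small for most genes. Over the 10043 genes of 10 CPM or more, the median coefficient of variation (CV, the SD over the mean) was 4.33%, with quartiles of 2.67 and 6.62%, beside 1.67% from counting alone. It was under 5% in 5875 genes (58.5%) and over 20% in 138. The biological coefficient of variation of edgeR over the same genes was 7.86%. Replicate 3 was the highest library in 73 of the 138 genes, replicate 1 in 60 and replicate 2 in 5.

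Genes with the widest spread fell into a few recognisable sets. Xist, the RNA of the inactive X chromosome, had 0.0509, 0.0379 and 567 CPM, and the Y-linked Ddx3y had 66.8, 65.2 and 0. Eif2s3y, Kdm5d and Uty also had no count in replicate 3, so that library is female by these genes and the others are male. Ribosomal RNA stood apart in replicate 2: Rn45s had 800, 2404 and 803 CPM and Rn18s 46.6, 132 and 52.1. Red cell genes were lowest there, with Ermap at 33.3, 8.43 and 22.5 CPM, Kel at 31.6, 9.55 and 20.9 and Trim10 at 15, 5.42 and 10.7, as with the embryonic globins above. Highest in replicate 3 were Myh11, Osr1, a factor of cardiac and limb mesenchyme, at 5.99, 12.3 and 20.8 CPM, and Islr, of connective tissue cells, at 10.7, 17.3 and 27.7. Mir5102 was at 59.6, 26.8 and 29.6 CPM, highest in replicate 1. Together with Hbb-bh1 these are the 15 genes with the largest CV. The part of sex in the other sets was not tested.

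**Figure D5:**
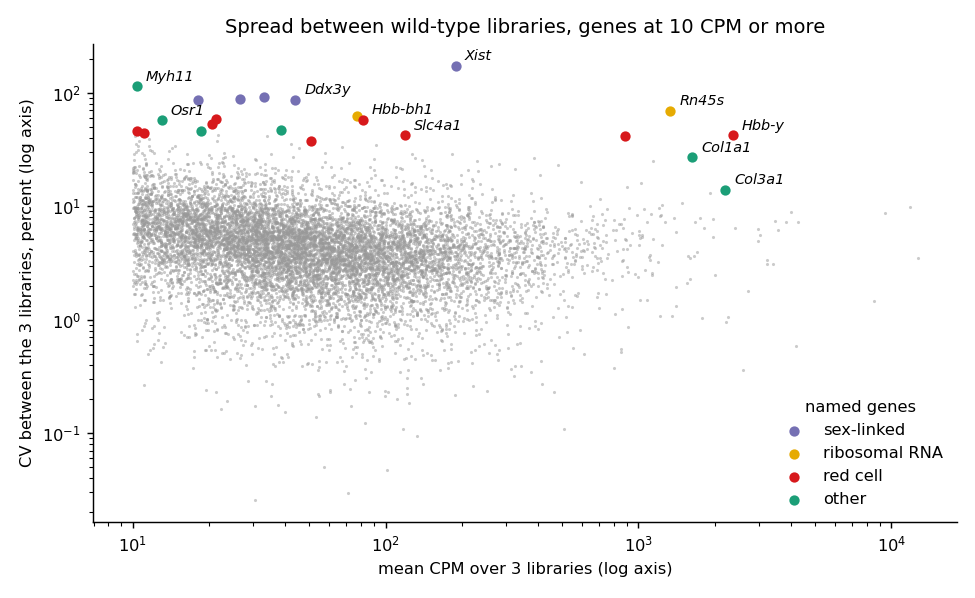
Coefficient of variation between the 3 libraries (log vertical axis, percent) against mean CPM (log horizontal axis) for the 10043 genes of 10 CPM or more, in grey, with named genes coloured by set. Most genes lie under 10%, while Xist, Myh11, Y-linked genes, ribosomal RNA and red cell genes lie well above genes of the same level.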

How the data were processed

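RNA of mouse mitral leaflets was sequenced, and the 3 libraries labelled Dzip1+/+ were described. The counts of the 3 libraries labelled Dzip1S14R/+ entered only a check of the grouping. The build was GRCm38 (mm10), and reads were processed with cutadapt 1.11, FastQC 0.11.5, HTSeq, DESeq and DESeq2, per the submitters' processing notes. The aligner, annotation and strand setting were not given in the sources used here. Per the file headers, the deposited counts stand in a column for each library, and their totals differ. The log2 fold changes of the authors' deposited table served only for the check of grouping. Another deposited table, of the Ift88 experiment, was not used.

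CPM was computed on the total of the gene rows, and TPM with the longest transcript of each gene in GENCODE M21. Of the 26667 table symbols, 22492 matched directly and 2047 through a RefSeq synonym; 2128 had no length and held 0.609% of the counts. The biological coefficient of variation came from edgeR 4.0.16 in R 4.3.3 with an intercept only; the step was checked on simulated data. Tables were handled with pandas 2.3.3 in Python 3.11.15. No groups were compared, so no test was run.

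The members, classes and 44 lists were chosen with earlier results of these data known. Named genes are the 25 highest by CPM and by TPM, the 5 checks, up to 6 leading members of a list, all atrial and ventricular genes, absent members where 10 or fewer, the 15 with the largest CV, and Dzip1, Ift88 and Cby1. Not every gene of those ranks is named, and other members of the lists, among them low and trace ones, were named after their values were seen, as were the families. Some listed genes are not reported here. Alternatives were TMM and DESeq2 1.42.0 scaling, a total without the top 10 genes, merged exon lengths, other thresholds, a count minimum and each library left out.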

Additional observations from a re-analysis of the deposited data

How the results depend on the processing

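No paired analysis was possible because no groups were compared. Thresholds of 200, 20 and 2 CPM gave 920 abundant genes and thresholds of 50, 5 and 0.5 CPM gave 4729. A minimum of 10 counts in every library left 2071 trace genes, and by construction no absent ones. On a total without the top 10 genes the summed CPM was 2771 for the endothelial, 35625 for the cardiomyocyte and 34911 for the fetal list. With merged exon length the summed TPM was 2251 for the endothelial, 45361 for the cardiomyocyte, 333 for the macrophage and 52718 for the fetal list. The median CV was 4.39% with TMM scaling, 4.44% with DESeq2 size factors, 5.29% over genes of at least 1 CPM, and 3.17 to 3.76% with a library left out. The biological coefficient of variation was 7.80, 7.82 and 9.87% in the same order, and 6.92 to 8.63% with a library left out. Of the other 37 list sums, 37 stayed within 1 SD with TMM and 37 with DESeq2 size factors, and 23 moved by more with merged exon length. Among those 23, the ventricular sum was 23298 TPM with the longest transcript and 17001 with merged exon length. The atrial sum was 13721 and 16653 TPM in the same order. How far the ventricular sum exceeded the atrial one per length therefore depends on the length chosen. A total without the top 10 genes raises all CPM of a library by a common factor, so which sums moved says nothing of single lists. With 3 libraries, leaving out 1 cannot move a mean by 1 SD, so it is no check of these sums; the sex-linked sum was 311 CPM and 183 without replicate 3. The cause of the moves in CV was not tested. Depth limits statements on absence to 0.0129 CPM, and TPM of genes with several transcripts depends on the length chosen. Library preparation from small amounts of RNA is not covered by counting error.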

Other observations

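Hox genes, the position code of the embryo, were read after the values had been seen. Of 15 genes of paralogue groups 1 to 5, 8 reached 1 CPM, the highest being Hoxb3 at 4.40, 4.81 and 7.29 CPM. Their summed level was 16.4, 23.0 and 32.5 CPM in replicates 1, 2 and 3. Hoxa5 had 0.140, 1.24 and 2.86 CPM and Hoxc5 0.0254, 0.101 and 1.52, so replicate 3 was the highest in both. Of 24 genes of groups 6 to 13, none reached 1 CPM and 9 were absent. Hoxc6, at 0.189 CPM, and Hoxb9, at 0.112, had counts in every library. Of groups 1 to 5, Hoxb1 was at 0.0384 and Hoxd1 at 0.0216 CPM.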
